A study of Mus musculus with 80 samples.

Results

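The genes described here encode 10 proteases of the lysosome: cathepsins A, B, C, D, F, H, L, S and Z (Ctsa, Ctsb, Ctsc, Ctsd, Ctsf, Ctsh, Ctsl, Ctss and Ctsz) and legumain (Lgmn). They were taken by gene symbol. All 10 were present among the 15919 genes of the deposited sort table and among the 16000 genes of the deposited preparation table, and all 10 passed the filter on low counts in every fit. Lysosomal proteases are made as inactive precursors, carried to the acidic lysosome and activated there by removal of a propeptide, after which they degrade proteins taken up by endocytosis, phagocytosis or autophagy. Cystatins inhibit the cysteine cathepsins, and transcription factors of the TFEB family act on many lysosomal genes. In the brain, microglia are the resident phagocytes, and in antigen-presenting cells cathepsin S and legumain take part in the processing of antigens and of the invariant chain.

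The study asked how the way microglia are isolated from mouse brain bears on the RNA that is read. Every library came from mice carrying Cx3cr1(Jung)-cre/Ert2+ and NuTRAP+, which had all received daily tamoxifen by intraperitoneal injection at 100 mg/kg from about 3 months of age and gave their tissue at 5 to 8 months, at least 2 months after the last dose. After recombination, cells that express Cx3cr1 carry eGFP-tagged ribosomes, so that translating ribosome affinity purification (TRAP) recovers RNA bound to those ribosomes. From each preparation an Input library was made from RNA before the pull-down and a TRAP library from the bound RNA. In the sort comparison, brain hemispheres were homogenized directly (Tissue, 4 mice), dissociated with enzymes at 37 °C into a mixed suspension (Cell, 4 mice), or dissociated and then enriched for microglia. Enrichment used CD11b magnetic beads (autoMACS, 4 mice), a cartridge sorter (Tyto, 5 mice), beads followed by the cartridge sorter (autoMACS to Tyto, 3 mice) or a cytometer (FACSAria, 4 mice). In the preparation comparison, Tissue was set beside the enzymatic suspension made without or with transcription and translation inhibitors (actinomycin D, triptolide and anisomycin), written Cell (-) and Cell (+), and beside a mechanical suspension made in a Dounce homogenizer at 4 °C, with 4 mice in each group. The Cre driver is Cx3cr1, so other Cx3cr1-expressing cells, border macrophages among them, can carry the tag.

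Summed expected counts ran from 7129464 to 20168116 per library (median 15211942) in the 48 libraries of the sort table. In the 32 libraries of the preparation table they ran from 2471448 to 14650287 (median 10179908), and the 4 Dounce-TRAP libraries, at 2471448 to 4724538, were the shallowest. Levels are given as CPM, the counts of a gene scaled to a common library total, normalized across all libraries of a table by the trimmed mean of M values (TMM). The 12 microglia markers summed, as lowest, median and highest over 4 libraries, to 255, 267 and 391 CPM in Tissue-Input and 5387, 6196 and 6814 CPM in Tissue-TRAP. The same sum was 4557, 5671 and 5986 CPM in Cell-Input and 34596, 36587 and 37974 CPM in Cell-TRAP. None of the 12 was at 0 in any of these groups. Neuronal markers (8 genes, led by Snap25) had median sums of 6011, 5950.0, 702 and 151 CPM in the same order of groups. Border macrophage markers (7 genes, led by Mrc1) had median sums of 11.1, 202, 150.1 and 1023 CPM. Astrocyte markers had median sums of 3216, 4597, 8362 and 1841 CPM. In the sorted Input groups the microglia sum had medians of 37816 to 42117 CPM. Microglia markers were thus present in TRAP and sorted libraries, with markers of other cell types beside them. In these bulk libraries, fewer cells of a type and less RNA per cell cannot be told apart.

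All 10 proteases were at their lowest in Tissue-Input and higher in every other group of the sort table. Together their share of all counts averaged 0.157% in Tissue-Input, 0.843% in Tissue-TRAP, 0.759% in Cell-Input and 2.7% in Cell-TRAP, and lay between 2.7% and 2.99% in the sorted Input groups and between 2.94% and 3.26% in the sorted TRAP groups. The library values follow for mice 946, 947, 948 and 949 in turn, each of which gave both a Tissue and a Cell preparation.

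Among the endopeptidases, Ctsd, the aspartic protease cathepsin D, stood at 334, 359, 316 and 317 CPM in Tissue-Input, 2710.3, 2098, 2988 and 2834 in Tissue-TRAP, 1759, 2069, 2170.4 and 2223 in Cell-Input and 8102, 8882, 9317 and 10177 in Cell-TRAP. Its Tissue-TRAP and Cell-Input libraries overlapped, while Tissue-Input lay far below and Cell-TRAP far above both. Ctss, a cysteine protease that keeps its activity near neutral pH, stood at 56.6, 76.4, 54 and 54.3 CPM in Tissue-Input, 1602, 1305, 1691 and 1453 in Tissue-TRAP, 806, 971, 914 and 932 in Cell-Input and 5802, 5743, 5591 and 6016 in Cell-TRAP. Here the groups did not overlap, and mouse 947 was the highest of the Tissue-Input libraries. Ctsl, another cysteine endopeptidase, stood at 85.8, 90.6, 90.0 and 81.5 CPM in Tissue-Input, 261, 197, 276 and 239 in Tissue-TRAP, 238, 256, 289 and 272 in Cell-Input and 1023, 961, 1045 and 1092 in Cell-TRAP. Ctsb, which acts both as an endopeptidase and by removing dipeptides from the carboxyl end, stood at 397, 423, 390.4 and 373 CPM in Tissue-Input, 902, 776, 962 and 827 in Tissue-TRAP, 871, 898, 888 and 875 in Cell-Input and 4000.4, 3395, 3659 and 3613 in Cell-TRAP. For Ctsl and Ctsb the Tissue-TRAP and Cell-Input libraries again overlapped. Ctsf, a cysteine endopeptidase whose loss in humans causes a neuronal ceroid lipofuscinosis, stood at 59.8, 60.7, 56.7 and 55.6 CPM in Tissue-Input, 106, 84.6, 111 and 97.0 in Tissue-TRAP, 109.8, 128, 126 and 120.1 in Cell-Input and 271, 300.2, 321 and 334 in Cell-TRAP. It had the narrowest spread of groups of the 10, and a Tissue-TRAP library (mouse 948) reached above the lowest Cell-Input library. Lgmn, the asparaginyl endopeptidase that processes several cathepsin precursors, stood at 98.7, 117, 102 and 97.5 CPM in Tissue-Input, 644, 699.8, 714 and 643 in Tissue-TRAP, 523, 654, 651 and 621 in Cell-Input and 3503, 3530.0, 3822 and 3756 in Cell-TRAP. Its Tissue-TRAP and Cell-Input libraries overlapped as well.

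The exopeptidases, too, were lowest in Tissue-Input and, of these 4 groups, highest in Cell-TRAP. Ctsc, dipeptidyl peptidase I, which activates granule serine proteases of leukocytes, stood at 4.15, 4.95, 3.57 and 4.87 CPM in Tissue-Input, 64.6, 70.8, 75.1 and 66.3 in Tissue-TRAP, 80, 83.2, 84.8 and 77.6 in Cell-Input and 536, 457, 520.1 and 479 in Cell-TRAP. Ctsh, mainly an aminopeptidase, stood at 6.34, 8.49, 5.38 and 6.0 CPM in Tissue-Input, 112, 122, 126 and 103 in Tissue-TRAP, 86.5, 105, 117 and 99.4 in Cell-Input and 489, 532, 568 and 572 in Cell-TRAP. These were the least abundant of the 10 in Tissue-Input, and their Tissue-Input libraries lay an order of magnitude or more below every other group. Ctsz, a carboxypeptidase also called cathepsin X, stood at 46.3, 49.8, 47.7 and 42.4 CPM in Tissue-Input, 375, 405, 418 and 376 in Tissue-TRAP, 230.2, 268, 291 and 289 in Cell-Input and 1328, 1398, 1547 and 1642 in Cell-TRAP. Ctsa, a serine carboxypeptidase that also protects beta-galactosidase and neuraminidase in the lysosome, stood at 93.3, 99.4, 87.8 and 95.1 CPM in Tissue-Input, 309.9, 342, 347 and 325 in Tissue-TRAP, 271, 318, 317 and 300.5 in Cell-Input and 1244, 1199, 1314 and 1330.5 in Cell-TRAP. Ctsz separated all 4 groups with Tissue-TRAP above Cell-Input, and Ctsa overlapped between those groups. Across all 10, Tissue-TRAP and Cell-Input overlapped for Ctsa, Ctsb, Ctsd, Ctsf, Ctsh, Ctsl and Lgmn and did not for Ctsc, Ctss and Ctsz.

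**Figure D1:**
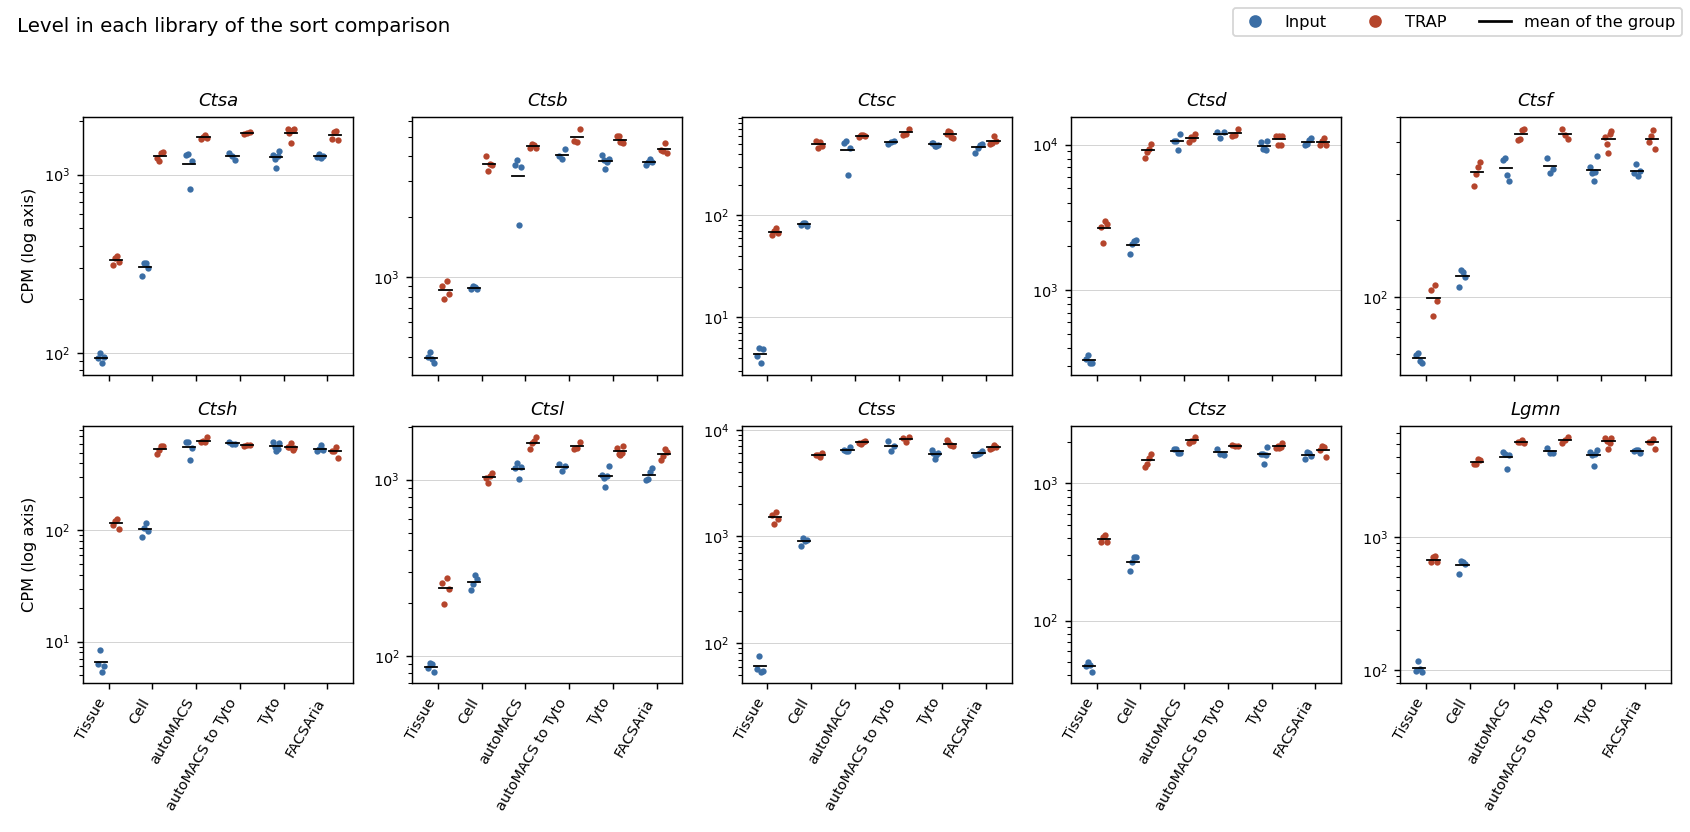
Levels of the 10 proteases in CPM on a logarithmic axis, with the 6 preparations of the sort table along the horizontal axis; points are libraries (blue Input, red TRAP) and lines are group means. Ctss averaged 60.3 CPM in Tissue-Input and 5788 CPM in Cell-TRAP.

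In the 16 sorted libraries of each fraction, most members stood at or somewhat above their Cell-TRAP level. For Ctsd the lowest, median and highest sorted values were 9206, 10606 and 12293 CPM in Input and 9912, 11186 and 12888 CPM in TRAP. For Ctss they were 5291, 6286 and 7869.9 CPM in Input and 6618, 7466 and 8496 CPM in TRAP. Lgmn had 3205, 4246 and 4597 CPM in Input and 4562, 5177 and 5573 CPM in TRAP. All of these sorted libraries lay above every Cell-Input library. Ctsb, at 1818, 3802 and 4376 CPM in Input and 4148, 4676 and 5501 CPM in TRAP, had its lowest value in the autoMACS-Input library of mouse 72. Ctsa showed 828, 1269 and 1362 CPM in Input and 1508, 1692 and 1810.4 CPM in TRAP. Ctsl showed 908, 1110.3 and 1248 CPM in Input and 1287, 1488 and 1739 CPM in TRAP. Sorted Input and sorted TRAP did not overlap for Ctsl, Ctsa or Ctsf. Ctsf spanned 283, 308 and 353 CPM in Input and 363, 423 and 452 CPM in TRAP. Ctsz spanned 1394, 1655 and 1845 CPM in Input and 1550.5, 1876 and 2172 CPM in TRAP. Ctsc spanned 248.9, 495 and 534 CPM in Input and 494, 602 and 706 CPM in TRAP. Ctsh, at 431, 573 and 628 CPM in Input and 452, 569 and 687 CPM in TRAP, was the member with the most even levels over the fractions. The library of mouse 72 was also the lowest sorted Input for Ctsa, Ctsc, Ctsh and Lgmn; its microglia marker sum was 23795 CPM against a median of 37816 CPM in that group, and the lowest correlation between libraries of that group was 0.9589.

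Ordered by level per kilobase of exon (CPM per kb, group means), Ctsd led in Tissue-Input with 156, followed by Ctsb (83.5), Lgmn (51.4), Ctss (44.4), Ctsz (32.3), Ctsf (29.4), Ctsa (25.6), Ctsl (14.1), Ctsh (4.05) and Ctsc (0.823). The neighbours Lgmn and Ctss overlapped in this order, as did Ctsz and Ctsf, and the other neighbours did not. In Cell-TRAP the order on the same scale was Ctsd (4288), Ctss (4262), Lgmn (1810.2), Ctsz (1026), Ctsb (773), Ctsa (346), Ctsh (334), Ctsl (167), Ctsf (155) and Ctsc (93.5). Ctsd and Ctss did not differ beyond their spread there, nor did Ctsa and Ctsh, nor Ctsl and Ctsf. Ctsd (1249) and Ctss (1114) also overlapped in Tissue-TRAP, where Lgmn (335) came next and Ctsc (13) last. In FACSAria-TRAP the leading pair was Ctss (5046) and Ctsd (4886), again overlapping, ahead of Lgmn (2527). So Ctsb stood next to Ctsd per kilobase in the tissue homogenate and behind Ctss, Lgmn and Ctsz in these TRAP groups.

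The first comparison asked which proteases were enriched by the pull-down from whole tissue. In Tissue, 9 of the 10 members were higher in TRAP than in Input, against 9.23% of all 15825 genes tested, where a call needs an adjusted p below 0.1 and a fold above 2. Ctss was enriched most, by log2 4.65 ± 0.10 (adjusted p = 2.55e-34, 4 mice), by edgeR's quasi-likelihood test with Benjamini-Hochberg adjustment over all genes tested, where ± gives the standard error. Ctsh followed with 4.14 ± 0.12 and Ctsc with 3.98 ± 0.14, then Ctsz with 3.08 ± 0.08, Ctsd with 3.00 ± 0.10 and Lgmn with 2.70 ± 0.09. Enrichment was smaller for Ctsa (1.82 ± 0.09), Ctsl (1.48 ± 0.08) and Ctsb (1.13 ± 0.11). Ctsf, at 0.78 ± 0.08 (adjusted p = 1.33e-10), had libraries that did not overlap between the fractions but missed the fold threshold. The median over the 10 was 2.85, against 0.03 over all genes tested and 4.54 over the 12 microglia markers, all of which rose.

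Among the rest of the lysosomal genes, 15 of 37 other hydrolases were called higher in Tissue-TRAP and none lower (median log2 0.82), with Man2b1 at 3.01 ± 0.13. Of 20 lysosomal membrane proteins, 4 were higher and 1 lower (median 0.41), with Laptm5 at 4.54 ± 0.12, Cd68 at 4.49 ± 0.17 and the lower gene, Abca2, at -1.32 ± 0.16. None of the 15 subunits of the proton pump that acidifies the lysosome was called (median -0.08). In the sorting and regulation list, 5 of 13 were higher and 1 lower, among them Grn, the progranulin gene, at 3.06 ± 0.09. Of the 10 listed cathepsin inhibitors, 4 were measured. Cystatin C (Cst3), which averaged 858 CPM in Tissue-Input and 5021 CPM in Tissue-TRAP, was enriched by 2.55 ± 0.09, and Cst7, at 0.0683 and 2.46 CPM, was called higher from almost no counts, while Cstb (0.52 ± 0.11) and Cst6 (-0.47 ± 0.54) were not called. Of 5 further cathepsin genes tested, 2 were higher and 1 lower. The other marker lists moved too, with 7 of 7 border macrophage, 7 of 7 endothelial and 1 of 8 astrocyte markers higher, 8 of 8 oligodendrocyte markers lower, no neuronal marker called, and 2 of 8 neutrophil and monocyte markers higher and 2 lower; their part in the result was not tested. Neutrophil and monocyte markers summed to a median of 3.82 CPM in Tissue-TRAP, with Camp, Retnlg and S100a8 at 0.

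From the mixed suspension, the pull-down enriched all 10 members (background 16.8% of genes higher). Of 7535 genes called here, 35.2% were higher, against 21.0% of 7511 with DESeq2 size factors and 18.8% of 7620 with limma. Ctss again led at 2.67 ± 0.09 (adjusted p = 4.34e-27, 4 mice; edgeR's quasi-likelihood test with Benjamini-Hochberg adjustment), but the members lay closer together than in Tissue. Lgmn was at 2.58 ± 0.09, Ctsd at 2.15 ± 0.09, Ctsl at 1.97 ± 0.09 and Ctsb at 2.05 ± 0.12. Among the exopeptidases, Ctsc was at 2.61 ± 0.12, Ctsz at 2.46 ± 0.08, Ctsh at 2.40 ± 0.10 and Ctsa at 2.08 ± 0.09. Ctsf was lowest at 1.34 ± 0.08 (adjusted p = 3e-18), and its call ended with DESeq2 (0.93), with limma (0.84) and with DESeq2 size factors (0.93) and with the filter of at least 10 counts (0.88). The median over members was 2.27, against -0.07 over all genes and 2.80 over microglia markers. With DESeq2 size factors in place of TMM the all-gene median moved to -0.48, and with limma to -0.54, so every fold in this comparison carries that uncertainty of scale.

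Other lysosomal genes rose with them: 26 of 37 hydrolases (median 1.44; Pla2g15 2.77 ± 0.09, Man2b1 2.72 ± 0.13), 9 of 20 membrane proteins with 2 lower (Cd68 2.86 ± 0.15, Abca2 -2.50 ± 0.16), 8 of 13 sorting and regulation genes with 1 lower (the mannose-6-phosphate receptor gene Igf2r lower at -2.37 ± 0.33) and no proton pump subunit (median 0.44). Cst3 rose by 1.84 ± 0.09 and Cst7 by 2.94 ± 0.35, Cst6, at 1.07 CPM in Cell-Input and 0.0368 CPM in Cell-TRAP, was called lower, and Cstb at 0.57 ± 0.11 was not called. Of the further cathepsins, 0 of 5 were higher and 2 lower. Markers of other cells were lower in Cell-TRAP than in Cell-Input for 7 of 8 neuronal, 8 of 8 astrocyte, 8 of 8 oligodendrocyte and 1 of 7 endothelial genes, and border macrophage markers were higher for 7 of 7. Oligodendrocyte markers had a median sum of 11217 CPM in Cell-Input and 520.1 CPM in Cell-TRAP, and astrocyte markers 8362 and 1841 CPM, led by Slc1a2; their part in the result was not tested.

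The tested difference of enrichment between the preparations, Cell minus Tissue in log2 TRAP against Input, was called lower for 3 of 10 members, beside 29.5% of all genes (with the filter of at least 10 counts, 4 of 10 members, and 2035 of 9786 genes in either direction, 12.8% of these higher): Ctss at -1.97 ± 0.12 (adjusted p = 1.05e-16), Ctsh at -1.74 ± 0.15 (adjusted p = 9.7e-13) and Ctsc at -1.37 ± 0.18 (adjusted p = 2.72e-08), by edgeR's quasi-likelihood test with Benjamini-Hochberg adjustment with 4 mice per group. Ctsd at -0.86 ± 0.12 and Ctsz at -0.62 ± 0.11 pointed the same way without reaching the fold threshold. Ctsd did reach it with DESeq2 (-1.18), with limma (-1.22), with the other normalization (-1.18) and the stricter filter (-1.19), and without mouse 946, 947 or 949 (-1.07, -1.18 and -1.01). Ctsb went the other way at 0.92 ± 0.16 (adjusted p = 4.51e-06), as did Ctsf at 0.57 ± 0.12 and Ctsl at 0.48 ± 0.12, all below the fold threshold. Lgmn at -0.13 ± 0.12 had an adjusted p of 0.364. Ctsa at 0.26 ± 0.12 (adjusted p = 0.0638) turned sign with DESeq2, its size factors, the filter of at least 10 counts and limma, to between -0.07 and -0.12, and to -0.01 without mouse 946. The median was -1.70 over the microglia markers, 11 of 12 of which were called lower, and -0.29 over all genes; the latter moved by -0.32 with DESeq2 size factors. Among lysosomal lists, 2 hydrolases were higher (Glb1 1.00 ± 0.21) and 2 lower, 1 membrane protein was higher and 4 lower (Laptm5 -1.80 ± 0.15), 2 pump subunits were higher and 0 lower, and 0 sorting genes were higher and 1 lower. Of the inhibitors 2 of 4 were lower and of the border macrophage markers 4 of 7. Astrocyte markers had median sums, in Input and TRAP, of 3216 and 4597 CPM in Tissue and 8362 and 1841 CPM in Cell. Neuronal sums were 6011 and 5950.0 CPM in Tissue and 702 and 151 CPM in Cell. Those of oligodendrocytes were 3386 and 807 CPM in Tissue and 11217 and 520.1 CPM in Cell. Their part in the result was not tested.

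The members were also higher after dissociation without a pull-down. Between Cell-Input and Tissue-Input of the same mice, all 10 were higher (background 28.5%). The largest folds were those of Ctsc, 4.31 ± 0.19 (adjusted p = 3.8e-15), Ctsh, 4.06 ± 0.15 and Ctss, 4.01 ± 0.12 (adjusted p = 1.51e-17), by edgeR's quasi-likelihood test with Benjamini-Hochberg adjustment with 4 mice per group. Ctsd (2.73 ± 0.11), Lgmn (2.66 ± 0.12) and Ctsz (2.63 ± 0.10) lay in the middle, and Ctsa (1.78 ± 0.13), Ctsl (1.70 ± 0.10), Ctsb (1.25 ± 0.16) and Ctsf (1.15 ± 0.09) rose least. Their median was 2.64, against 0.17 over all genes and 4.13 over microglia markers. Of the hydrolases 27 of 37 rose (median 1.50; Dnase2a 3.13 ± 0.11) and of the membrane proteins 14 of 20 (Slc11a1 4.02 ± 0.17, Lamp2 2.99 ± 0.14). The proton pump did not follow, with 1 subunit higher (Atp6v0e 1.82 ± 0.12) and 7 lower of 15 (Atp6v1b2 -1.77 ± 0.07). Of the sorting and regulation genes 6 of 13 rose (Grn 2.65 ± 0.12). Cst3 rose by 1.70 ± 0.11, Cst7, at 0.0683 CPM in Tissue-Input and 1.39 CPM in Cell-Input, was called higher, Cst6 fell to -2.15 ± 0.55, and 4 of 5 further cathepsins rose, among them Ctso at 2.24 ± 0.14.

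Marker lists of other cells moved between the same libraries: all 8 neuronal markers were lower, while 5 of 8 astrocyte, 8 of 8 oligodendrocyte, 7 of 7 endothelial, 7 of 7 border macrophage and 8 of 8 neutrophil and monocyte markers were higher. Astrocyte markers had a median sum of 3216 CPM in Tissue-Input and 8362 CPM in Cell-Input, oligodendrocyte markers 3386 and 11217 CPM, and endothelial markers (led by Cldn5 or Flt1) 53 and 1247 CPM. Early response genes, which are induced within minutes of stimulation, summed to 461 and 4282 CPM, with 10 of 11 higher. Their part in the result was not tested.

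Between Cell-TRAP and Tissue-TRAP, where RNA of tagged ribosomes was compared with and without dissociation, all 10 members were again higher (background 25.1%). Ctsc rose most, by 2.86 ± 0.08 (adjusted p = 2.72e-20, 4 mice), followed by Lgmn at 2.45 ± 0.07 and Ctsh at 2.24 ± 0.08. Ctsl was at 2.10 ± 0.08, Ctsb at 2.09 ± 0.07, Ctss at 1.95 ± 0.06, Ctsa at 1.95 ± 0.06, Ctsz at 1.92 ± 0.07 and Ctsd at 1.79 ± 0.09. Ctsf rose least, by 1.63 ± 0.08 (adjusted p = 3.71e-15), and both adjusted p are from edgeR's quasi-likelihood test with Benjamini-Hochberg adjustment. The members' median of 2.02 stood beside 2.51 for microglia markers (11 of 12 higher) and -0.01 for all genes, and the latter moved by -0.33 with DESeq2 size factors and by -0.43 with limma. Of the hydrolases 31 of 36 rose (median 1.87; Pla2g15 2.52 ± 0.09, Gusb 2.51 ± 0.08), of the membrane proteins 14 of 20 (Lamp2 3.09 ± 0.10, Npc1 2.84 ± 0.10), and of the sorting and regulation genes 8 of 13, with 1 lower. The pump had 1 subunit higher and 2 lower (median -0.72). Cst3 at 0.90 ± 0.07 was not called, Cst7 rose by 2.11 ± 0.32, Cst6, at 3.66 CPM in Tissue-TRAP and 0.0368 CPM in Cell-TRAP, was called lower, and 3 of 4 further cathepsins rose. Neuronal markers were lower for 8 of 8 genes, astrocyte and oligodendrocyte markers lower for 4 and 3 of 8, endothelial markers higher for 7 of 7, border macrophage markers for 7 of 7, and early response genes, at median sums of 414 and 20229 CPM, higher for 11 of 11; their part in the result was not tested. This comparison and that of the Inputs share mice but no library.

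After sorting, the members were higher in Input. The sorted libraries came from other mice than the Tissue and Cell libraries, so sorting and mouse cannot be told apart in either fraction. With the mean of the 4 sorts set against the mixed suspension, all 10 were higher in Input (background 17.1%), led by Ctss at 2.58 ± 0.10 (adjusted p = 9.98e-17; edgeR's quasi-likelihood test with Benjamini-Hochberg adjustment; 16 sorted and 4 Cell libraries). Next came Lgmn (2.55 ± 0.11), Ctsz (2.40 ± 0.09), Ctsc (2.33 ± 0.15), Ctsh (2.25 ± 0.12) and Ctsd (2.14 ± 0.09), then Ctsb (1.84 ± 0.14), Ctsl (1.84 ± 0.09) and Ctsa (1.80 ± 0.11). Ctsf was at 1.15 ± 0.08, and its call ended with DESeq2 (0.95), the other normalization (0.95), the stricter filter (0.84) and limma (0.82). The all-gene median of -0.09 moved by -0.21 with DESeq2 size factors and by -0.33 with limma; the microglia markers had a median of 2.73. Hydrolases were higher for 24 and lower for 1 of 37 (Hexa 2.29 ± 0.08), membrane proteins for 5 and 2 of 20, and sorting genes for 6 and 2 of 13 (Igf2r lower at -3.68 ± 0.26), with no pump subunit called. Cst3 rose by 1.74 ± 0.09 and Cst7 by 3.14 ± 0.30, Cst6, at 1.07 CPM in Cell-Input and at most 0.109 CPM on average in the sorted Inputs (0 in autoMACS to Tyto-Input), was called lower, and 1 of 5 further cathepsins was lower. All 8 markers each of neurons, astrocytes and oligodendrocytes and all 7 endothelial markers were lower after sorting, while 7 of 7 border macrophage markers, 11 of 11 early response genes and 5 of 8 neutrophil and monocyte markers (with 1 lower) were higher. Border macrophage sums had a median of 150.1 CPM in Cell-Input and group medians of 599 to 957 CPM in the sorted Inputs, early response sums 4282 and 24836 to 27661 CPM, and neutrophil and monocyte sums 38.9 and 19.7 to 201 CPM. Neuronal sums in the sorted libraries had group medians of at most 22.3 CPM. Their part in the result was not tested.

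In TRAP, none of the 10 was called between the sorts and the suspension with edgeR, DESeq2 or limma (background 24.4% in either direction, with 125 genes higher and 3526 lower, or 440 of 10239 genes with the filter of at least 10 counts). Of the 10, 9 had an unadjusted p below 0.05 and 9 an adjusted p below 0.1. The background refers to calls only, and shares of all genes at these p thresholds alone are not given. Folds ran from 0.06 ± 0.06 for Ctsh (adjusted p = 0.407) to 0.52 ± 0.06 for Ctsl (adjusted p = 1.65e-07), with Lgmn at 0.48 ± 0.05 (adjusted p = 2.35e-08), Ctsf at 0.43 ± 0.07 and Ctsa at 0.37 ± 0.05, all by edgeR's quasi-likelihood test with Benjamini-Hochberg adjustment on 16 sorted libraries (10 mice) and 4 Cell libraries. Sorted and suspension libraries did not overlap for 6 members: Ctsa, Ctsb, Ctsf, Ctsl, Ctss and Lgmn. The share of all genes without overlap is not given, so this count has no background beside it. No hydrolase, membrane protein or pump subunit was called (medians 0.36, 0.19 and 0.03), nor any microglia marker (median 0.34), and 1 sorting gene was lower. All 8 neuronal, all 8 astrocyte, 6 of 8 oligodendrocyte and 6 of 7 endothelial markers were lower, and their part in the result was not tested. The Cell libraries are shared with the comparisons of Cell and Tissue.

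Within sorted cells, the fold of TRAP against Input was below 2 for every member. The backgrounds in this paragraph refer to calls, and shares of all genes at an unadjusted p below 0.05 are not given. In autoMACS, 0 of 10 were called by edgeR, DESeq2 or limma (background 17.5%, or 348 of 9786 genes with the filter of at least 10 counts), 9 had an unadjusted p below 0.05, and folds ran from 0.08 ± 0.09 for Ctsd to 0.50 ± 0.08 for Ctsl, with 4 mice. In autoMACS to Tyto, 0 of 10 were called by any of the 3 tools (background 5.4%, or 257 of 9786 with that filter), 7 had an unadjusted p below 0.05, and folds ran from -0.07 ± 0.11 for Ctsh to 0.43 ± 0.10 for Ctsa, with 3 mice. In Tyto, 0 of 10 were called by any of the 3 tools (background 17.0%, or 292 of 9786 with that filter), 8 had an unadjusted p below 0.05, and folds ran from -0.02 ± 0.09 for Ctsh to 0.47 ± 0.07 for Ctsl, with 5 mice. Across these methods Ctsl and Ctsa were repeatedly the members with the larger positive folds, and Ctsh and Ctsd those nearest to 0. Ctsf joined Ctsl and Ctsa except in autoMACS, where Ctsb (0.48) and Ctsc (0.45) lay above it (0.43). The autoMACS-Input library of mouse 72 was low for both of these. Ctsb stood there at 1817.5 CPM (others 3547.5 to 3838.3), and Ctsc at 248.9 CPM against a group median of 485.9. In FACSAria, 0 of 10 were called by any of the 3 tools (background 10.3%, or 175 of 9786 with that filter), 5 had an unadjusted p below 0.05, and folds ran from -0.08 ± 0.10 for Ctsh to 0.41 ± 0.08 for Ctsf, with 4 mice. There Ctsd stood at 9908, 10072, 10741 and 11069 CPM in Input and 9931, 10592, 11132 and 9919 in TRAP for mice 69, 945, 991 and 992, and Ctss at 5837, 5965, 6092 and 6329 CPM in Input and 6618, 6727, 7215 and 6847 in TRAP. The fractions overlapped for Ctsd and not for Ctss, where each TRAP library lay above all Input libraries. Of the hydrolases, membrane proteins, pump subunits and sorting genes in these comparisons, only 1 hydrolase in autoMACS was called (lower), while the calls over all genes were nearly all lower in TRAP, for instance 2760 lower and 11 higher in autoMACS. Folds that lie this near 0 changed sign under some settings.

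Across the 4 sorting methods, 0 of the 10 members were called in Input by edgeR, DESeq2 or limma, with 1 at an unadjusted p below 0.05. The Input background was 7.42%, or 304 of 10004 genes with the filter of at least 10 counts and 1917 of 15703 with DESeq2. The largest fold between any pair of methods ran from 0.08 for Ctsf to 0.39 for Ctsb, whose value was 0.18 without mouse 72, the low autoMACS-Input library, when Ctsd had the largest at 0.31. In TRAP 0 were called by any of the 3 tools, with 6 at an unadjusted p below 0.05. Shares of all genes at that p are not given for either fraction. The TRAP background was 4.17%, or 173 of 10239 genes with that filter and 1148 of 14950 with DESeq2. There the adjusted p was below 0.1 for Ctsb, Ctsc, Ctsh, Ctss and Ctsz, with Ctsh the largest at 0.33 (adjusted p = 0.0111, edgeR's quasi-likelihood test with Benjamini-Hochberg adjustment, 3 to 5 mice per method). The 16 sorted libraries of a fraction came from 10 mice: 66, 67 and 73 gave both autoMACS and autoMACS to Tyto libraries, and 69, 945 and 991 both Tyto and FACSAria libraries. With limma and the mouse as a random block, chosen after seeing the data, 0 were called in either fraction. Ctsh averaged 641 CPM in autoMACS-TRAP, 582 in autoMACS to Tyto-TRAP, 563 in Tyto-TRAP and 513 in FACSAria-TRAP. A value that missed the threshold does not show that the methods were alike.

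**Figure D2:**
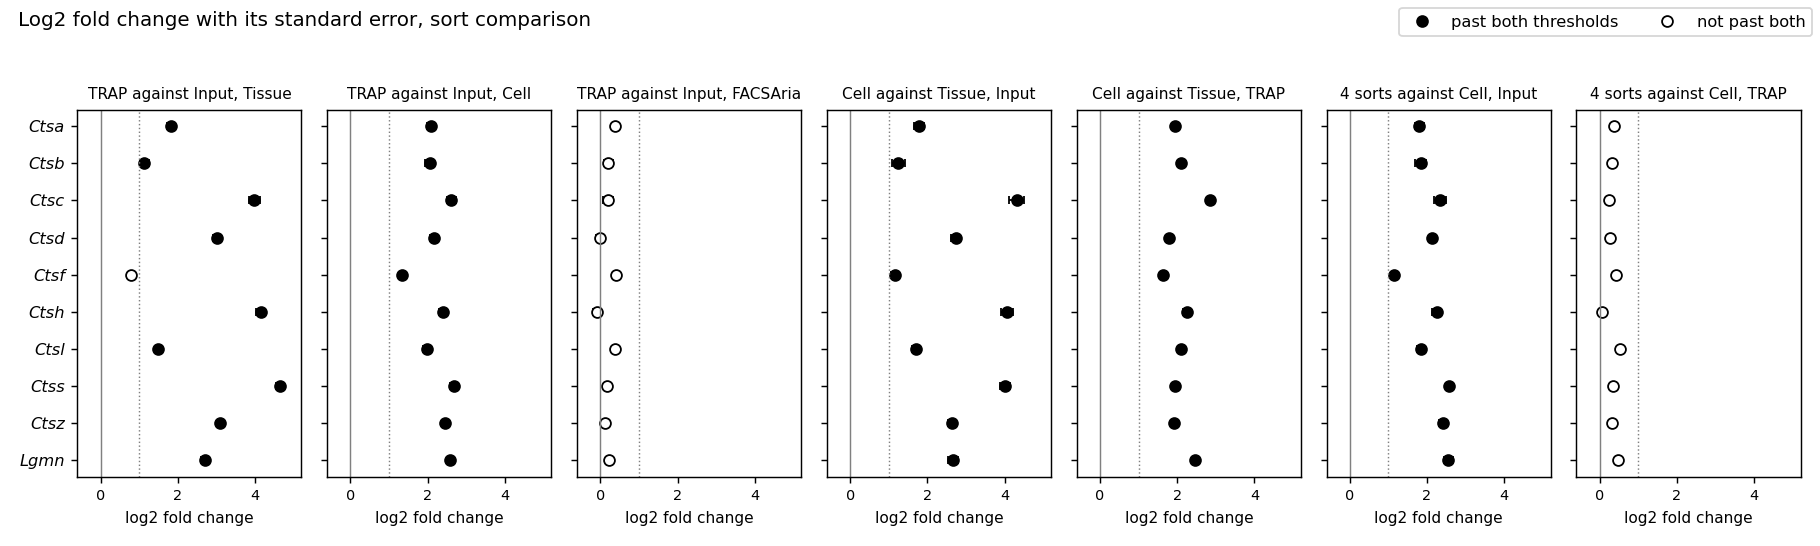
Log2 folds of the 10 proteases in 7 comparisons of the sort table, with bars for the standard error; filled points passed both thresholds, open points did not, and dotted lines mark a log2 fold of 1. Ctss lay at 4.65 for TRAP against Input in Tissue and at 0.18 in FACSAria.

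The preparation table repeated the Tissue group with new libraries from the same 4 mice and set 3 suspensions beside it. Tissue, Dounce and the enzymatic suspensions of this table came from separate sets of mice. In comparisons between these sets, preparation and mouse cannot be told apart. In whole tissue, the pull-down again enriched 9 of 10 members (background 8.21%), from Ctss at 4.89 ± 0.14 (adjusted p = 1.14e-22, 4 mice, edgeR's quasi-likelihood test with Benjamini-Hochberg adjustment) to Ctsb at 1.18 ± 0.15, with Ctsf at 0.75 ± 0.09 below the fold threshold. Ctss stood at 78.9, 87.0, 71.3 and 69.7 CPM in Tissue-Input and 2187, 2215, 2574 and 2096 in Tissue-TRAP. Ctsd stood at 409, 406, 398 and 389 CPM in Tissue-Input and 3388, 3059, 3758 and 3395 in Tissue-TRAP. For both, every TRAP library lay far above every Input library. The enzymatic suspension without inhibitors had all 10 enriched by the pull-down (background 10.6%), from 1.06 ± 0.09 for Ctsf to 2.30 ± 0.13 for Ctss, and that with inhibitors all 10 (background 9.71%), from 1.11 ± 0.09 for Ctsf to 2.21 ± 0.13 for Ctss. With only the groups compared, the all-gene median moved by 0.44 in Cell (-) and by 0.39 in Cell (+). Higher genes as a share of calls then went from 22.4% to 37.9% in Cell (-) and from 21.3% to 33.8% in Cell (+). The Dounce suspension had all 10 enriched (background 20.8%), from 1.73 ± 0.09 for Ctsf to 4.39 ± 0.14 for Ctss, with a median of 3.74 and with all 12 microglia markers higher; its all-gene median moved by -0.23 with DESeq2 size factors and by -0.33 with limma. Hydrolases were called higher for 14, 28, 23 and 20 genes in Tissue, Dounce, Cell (-) and Cell (+), membrane proteins for 4, 11, 5 and 5, pump subunits for 1, 3, 0 and 0, and sorting genes for 5, 8, 5 and 4. In the same order, border macrophage markers were higher for 7, 7, 7 and 7 of 7, and markers were lower for 8, 6, 8 and 8 of 8 oligodendrocyte, 0, 4, 8 and 8 of 8 astrocyte and 0, 7, 8 and 8 of 8 neuronal genes. In Cell (-) Input and TRAP, median sums were 18161 and 771 CPM for oligodendrocytes, 9468 and 1745 for astrocytes, 612 and 99.2 for neurons and 181 and 1151 for border macrophages. Their part in the result was not tested.

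Against Tissue-Input, all 10 members were higher in Cell (-) Input (background 25.6%), from 1.08 ± 0.09 for Ctsf to 4.46 ± 0.15 for Ctsc (adjusted p = 7.01e-14). All 10 were also higher in Cell (+) Input (background 25.5%), from 1.13 ± 0.09 for Ctsf to 4.50 ± 0.16 for Ctss (adjusted p = 7.67e-14). In TRAP, all 10 were higher in Cell (-) than in Tissue (background 22.3%), from 1.58 ± 0.09 for Ctsf to 2.70 ± 0.09 for Ctsc, and all 10 in Cell (+) (background 21.6%), from 1.70 ± 0.09 for Ctsf to 2.73 ± 0.09 for Ctsc. Each p is from edgeR's quasi-likelihood test with Benjamini-Hochberg adjustment, with 4 mice per group, and the comparisons with Cell (-) and Cell (+) share the Tissue libraries. Ctss stood at 1790.4, 2196, 1684 and 1615 CPM in Cell (-) Input and 1973, 1939.6, 1728 and 2038 in Cell (+) Input for mice 156, 157, 1361 and 1362, and at 8544, 9898, 9774 and 7645 in Cell (-) TRAP and 9104, 9669, 8987 and 7829 in Cell (+) TRAP. The libraries with and without inhibitors overlapped in both fractions. Hydrolases were higher for 25 and 28 of 37 genes in Cell (-) and Cell (+) Input and for 30 and 31 in TRAP, membrane proteins for 10 and 13 in Input and 14 and 15 in TRAP, and sorting genes for 5 and 6 in Input and 8 and 7 in TRAP. Pump subunits were lower for 8 and 8 in Input and 6 and 6 in TRAP. Of the cathepsin inhibitors, 2 were higher and 1 lower in Cell (-) Input, and of the further cathepsins 5 of 6 were higher. Markers of cell types moved as well. In Cell (-) and Cell (+) Input against Tissue-Input, 8 and 8 of 8 neuronal markers were lower, and 12 and 12 of 12 microglia, 7 and 7 of 7 border macrophage, 4 and 4 of 8 astrocyte, 8 and 7 of 8 oligodendrocyte, 7 and 7 of 7 endothelial and 8 and 8 of 8 neutrophil and monocyte markers were higher. Median sums in Tissue-Input, Cell (-) Input and Cell (+) Input were 8119, 612 and 717 CPM for neurons, 4379, 9468 and 9469.9 for astrocytes, 4659, 18161 and 14968 for oligodendrocytes and 68.5, 1635 and 1686 for endothelial cells. In TRAP, 8 and 8 neuronal, 5 and 5 astrocyte and 1 and 6 oligodendrocyte markers were lower than in Tissue, and 11 and 12 microglia, 5 and 5 border macrophage and 7 and 7 endothelial markers were higher. Median sums in Tissue-TRAP, Cell (-) TRAP and Cell (+) TRAP were 7763, 42070.0 and 44213 CPM for microglia and 241, 1151 and 990.3 for border macrophages. Of 11 early response genes, 11 were higher in Cell (-) Input and 11 in Cell (-) TRAP, while in Cell (+) 3 were higher and 3 lower in Input and 3 higher and 3 lower in TRAP. Their median sums were 547 CPM in Tissue-Input and 479 CPM in Tissue-TRAP. Their part in the result was not tested.

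No member passed both thresholds between suspensions made with and without the transcription and translation inhibitors. In Input, 0 of 10 were called between Cell (+) and Cell (-) by edgeR, DESeq2 or limma (background 0.311%), 0 had an unadjusted p below 0.05, folds ran from 0.02 for Ctsa to 0.15 for Ctsd, and the groups overlapped for every member. In TRAP, 0 of 10 were called by any of the 3 tools (background 0.638%, or 94 genes) and 2 had an unadjusted p below 0.05. Both suspensions came from the same mice. With a block for the mouse and only the groups compared, chosen after seeing the data, 150 of 13334 genes were called and no member call changed. Ctsd stood at 11374, 11662, 10228 and 10428 CPM in Cell (-) TRAP and 14045, 13793, 13113 and 13251 in Cell (+) TRAP. Every library with inhibitors lay above every library without, and the fold of 0.32 ± 0.08 had an adjusted p of 0.0451 without reaching a fold of 2 (edgeR's quasi-likelihood test with Benjamini-Hochberg adjustment, 4 mice). Ctsh stood at 633, 673, 642 and 643 CPM and 757, 748, 739 and 764 CPM in the same groups, also without overlap, with a fold of 0.22 ± 0.10 (adjusted p = 0.449). Ctsf did not overlap either, at 374, 394, 377 and 389 CPM and 409.6, 417, 404 and 423 CPM, with a fold of 0.12 ± 0.09. The lowest fold was that of Ctsl at -0.12 ± 0.10. Ctsb had a high library from mouse 1362 in both groups, at 4857, 4916, 4896 and 7533 CPM without and 5096, 5130.1, 4811 and 6964 CPM with inhibitors. Missing the threshold does not show that there was no difference. In the same comparisons all 11 early response genes were lower with inhibitors, with medians of -3.90 in Input and -5.25 in TRAP, while no gene of the lysosomal lists was called. Early response sums had medians of 7089 and 25908 CPM in Cell (-) Input and TRAP and 497 and 728 CPM in Cell (+).

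**Figure D3:**
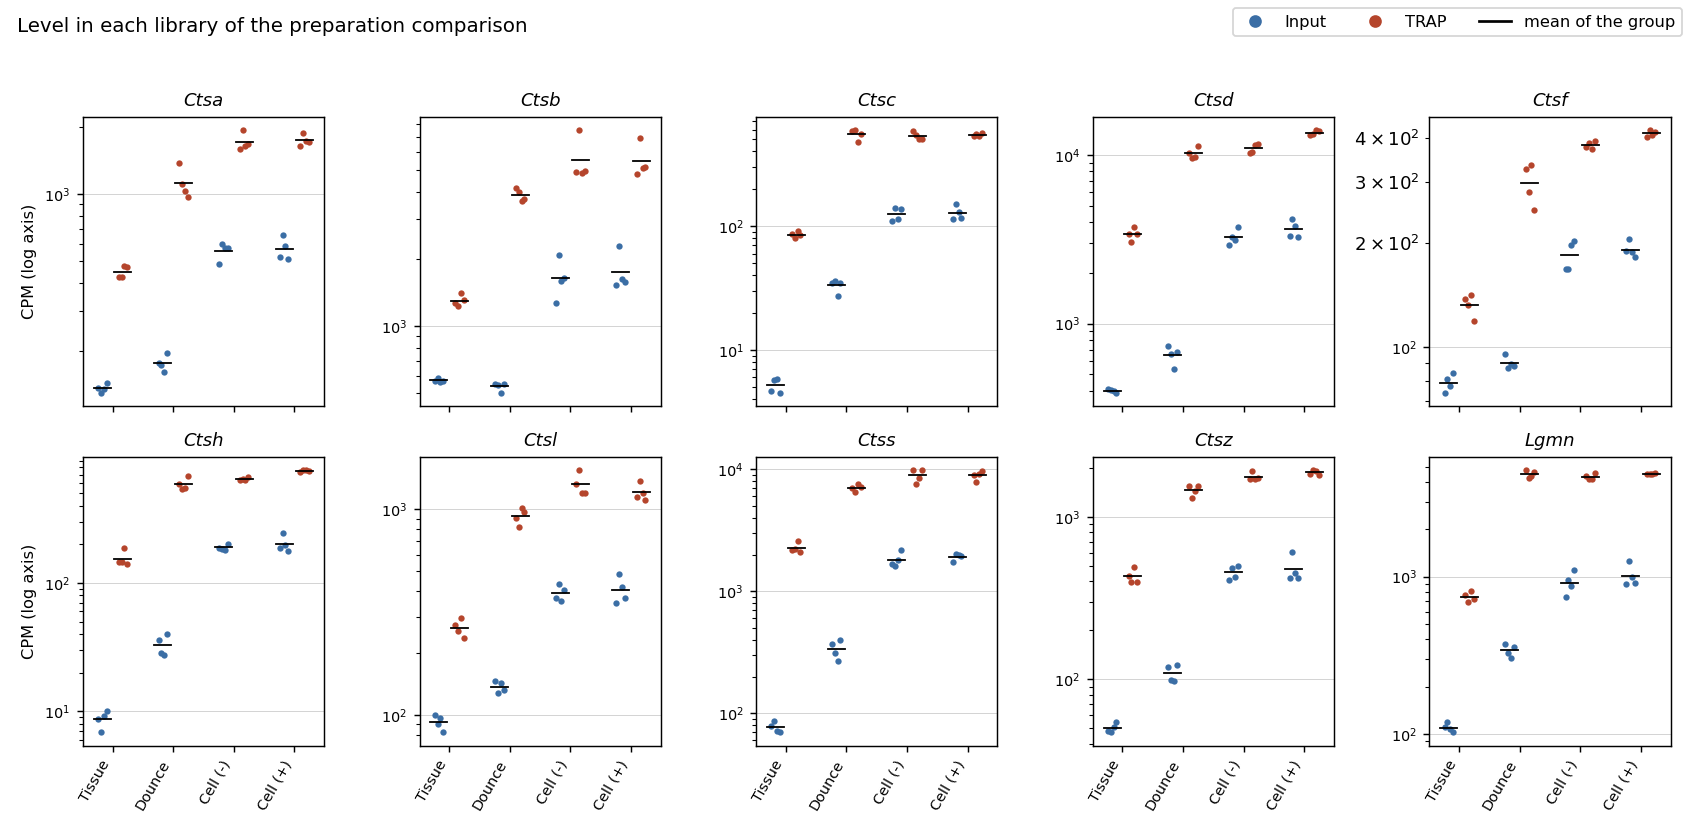
Levels of the 10 proteases in CPM on a logarithmic axis, with the 4 preparations of the preparation table along the horizontal axis; points are libraries (blue Input, red TRAP) and lines are group means. Ctsd averaged 653 CPM in Dounce-Input and 3267 CPM in Cell (-) Input.

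For the cold mechanical suspension a whole brain was used per preparation, against a hemisphere elsewhere. In Dounce-Input, 5 of 10 members were higher than in Tissue-Input (background 28.7%): Ctsc by 2.90 ± 0.15 (adjusted p = 1.98e-12), Ctss by 2.34 ± 0.14, Ctsh by 2.13 ± 0.15, Lgmn by 1.84 ± 0.14 and Ctsz by 1.33 ± 0.13, by edgeR's quasi-likelihood test with Benjamini-Hochberg adjustment with 4 mice per group. The endopeptidases other than Ctss and Lgmn were not called, with Ctsd at 0.91 ± 0.13, Ctsl at 0.78 ± 0.11, Ctsf at 0.40 ± 0.09 and Ctsb at 0.12 ± 0.15 (adjusted p = 0.467), nor was Ctsa at 0.58 ± 0.11. Ctsd stood at 738, 661, 534 and 680.0 CPM in Dounce-Input for mice 179 to 182, above all Tissue-Input libraries, and its fold reached 1.00 and a call without mouse 181, the lowest of the 4. Ctss stood at 369, 313, 268 and 398 CPM in Dounce-Input. Ctsc stood at 34.9, 36.3, 27.3 and 34.5 CPM in Dounce-Input and 4.68, 5.72, 5.79 and 4.52 CPM in Tissue-Input. For these the groups were well apart. Ctsb stood at 554, 545, 504 and 552 CPM in Dounce-Input and 567, 587, 565 and 570.3 CPM in Tissue-Input, and was the only member whose lowest group was not Tissue-Input. Its Dounce libraries lay below those of Tissue on this scale although the fold was above 0, because folds within a fraction use TMM factors of that fraction's libraries alone, whereas CPM values use factors over the whole table.

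Other lysosomal genes in Dounce-Input against Tissue-Input were split as well, with 14 hydrolases higher (Idua 1.88 ± 0.17) and 1 lower, 8 membrane proteins higher and 1 lower (Cd68 2.49 ± 0.25), 10 of 15 pump subunits lower (Atp6v1e1 -3.19 ± 0.14) and 2 sorting genes higher. Among inhibitors Cst7, at 0.181 CPM in Tissue-Input and 0.917 CPM in Dounce-Input, was called higher, Cstb fell to -2.37 ± 0.16, Cst6 fell to -1.43 ± 0.39 and Cst3 at 0.08 ± 0.13 was not called. All 12 microglia markers were higher (median 2.65). All 8 neutrophil and monocyte markers were higher too (median 8.09), summing to 194, 337 and 1244 CPM as lowest, median and highest in Dounce-Input, led by S100a9. Neuronal markers, with a median sum of 2969.9 CPM against 8119 CPM in Tissue-Input, were lower for 6 of 8, and endothelial markers for 4 of 7. Border macrophage markers, with a median sum of 74.3 CPM against 13.2 CPM, were higher for 7 of 7, and astrocyte markers, at 2439.7 against 4379 CPM, were lower for 3 of 8. Oligodendrocyte markers were higher for 5 and lower for 1 of 8, and early response genes higher for 2 and lower for 3 of 11. Their part in the result was not tested.

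Set against the enzymatic suspension without inhibitors, 9 of 10 members were lower in Dounce-Input (background 28.1% lower). Ctsh was lowest at -2.17 ± 0.13 (adjusted p = 2.55e-11), followed by Ctss at -2.08 ± 0.14, Ctsd at -1.97 ± 0.13, Ctsz at -1.71 ± 0.13 and Ctsc at -1.56 ± 0.12. Ctsa was at -1.32 ± 0.11, Ctsb at -1.26 ± 0.15, Ctsl at -1.16 ± 0.11 and Lgmn at -1.08 ± 0.13, whose call ended without mouse 157 (-0.98). Ctsf, at -0.68 ± 0.09 (adjusted p = 1.02e-06), was not called; the test was edgeR's quasi-likelihood test with Benjamini-Hochberg adjustment with 4 mice per group. Ctsd stood at 3147, 3731, 2913 and 3277 CPM in Cell (-) Input for mice 156, 157, 1361 and 1362, and Lgmn at 870.0, 1095, 746 and 948 CPM there against 372, 329, 305 and 355 CPM in Dounce-Input. No member overlapped between these groups. Of all 15753 genes tested, 8952 were called in either direction here, and the share without overlap is not given. On this CPM scale, whose factors span both fractions, Ctsf averaged 90.0 CPM in Dounce-Input and 183.9 CPM in Cell (-) Input. These means lie further apart than its fold of -0.68. Hydrolases were lower for 15 and higher for 2 genes (Gm2a -1.96 ± 0.14), membrane proteins for 12 and 2 (Lamp1 -1.93 ± 0.12), pump subunits for 4 and 1, and sorting genes for 5 and 0 (Grn -1.91 ± 0.16). Microglia markers were lower for 10 of 12 (median -1.62), with median sums of 2211 CPM in Dounce-Input and 8510.2 CPM in Cell (-) Input. Between the same groups 5 of 7 border macrophage, 8 of 8 astrocyte, 3 of 8 oligodendrocyte and 7 of 7 endothelial markers and 10 of 11 early response genes were lower in Dounce-Input, and 7 of 8 neuronal and 7 of 8 neutrophil and monocyte markers were higher. Median sums in Dounce-Input and Cell (-) Input were 2969.9 and 612 CPM for neurons, 2439.7 and 9468 for astrocytes, 5671 and 18161 for oligodendrocytes, 29.8 and 1635 for endothelial cells and 313 and 7089 for early response genes. Their part in the result was not tested.

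All 10 members were higher in Dounce-TRAP than in Tissue-TRAP (background 23.2%), from 1.23 ± 0.09 for Ctsf to 2.76 ± 0.09 for Ctsc (adjusted p = 6.08e-14), with Lgmn at 2.65 ± 0.07. Between Tissue-TRAP and Dounce-TRAP the median sums were 7763 and 40645 CPM for microglia, 241 and 1256 for border macrophages, 7527 and 1252 for neurons and 213 and 66.2 for endothelial cells, with 11 of 12 microglia and 5 of 7 border macrophage markers higher and 8 of 8 neuronal, 5 of 8 astrocyte and 6 of 7 endothelial markers lower. Oligodendrocyte markers were higher for 5 of 8, and early response genes higher for 3 and lower for 3 of 11. Against Cell (-) TRAP, 0 of 10 were called by edgeR, DESeq2 or limma (background 28.7% in either direction, with 3047 genes higher and 1181 lower, or 1892 of 10308 genes with the filter of at least 10 counts). Of the members, 6 had an unadjusted p below 0.05, 6 an adjusted p below 0.1, and 6 did not overlap between the groups. That background refers to calls only, and shares of all genes for the latter counts are not given. Folds ran from -0.59 ± 0.10 for Ctsa (adjusted p = 7.4e-05) to 0.07 ± 0.07 for Lgmn, by edgeR's quasi-likelihood test with Benjamini-Hochberg adjustment with 4 mice per group; Ctsb was at -0.51 ± 0.13, Ctsl at -0.50 ± 0.10 and Ctss at -0.34 ± 0.09. Ctss stood at 6999, 6477, 7513 and 7157 CPM in Dounce-TRAP, below every Cell (-) TRAP library. Ctsc stood at 589, 596, 481 and 549 CPM and Lgmn at 4777, 4246, 4352 and 4644 CPM, both overlapping Cell (-) TRAP. Of the other lysosomal genes, 27 hydrolases were higher in Dounce-TRAP than in Tissue-TRAP (Naglu 2.26 ± 0.11), with 13 membrane proteins higher and 1 lower, 10 pump subunits lower and 4 sorting genes higher. Against Cell (-) TRAP, no hydrolase, membrane protein or pump subunit was called, while 1 sorting gene, 1 inhibitor and 2 further cathepsins were higher. All 8 neuronal markers were higher in Dounce-TRAP than in Cell (-) TRAP, with a median sum of 1252 CPM, as were 6 of 8 oligodendrocyte markers and 1 astrocyte marker, while 3 of 8 astrocyte markers, 7 of 7 endothelial markers and 11 of 11 early response genes were lower; their part in the result was not tested. These are the shallowest libraries of the study, and their replicates correlated at 0.9209 to 0.9515.

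Across the 12 groups of the sort table, the genes whose mean levels ran most like those of each member were found by the Pearson correlation of mean log2(CPM + 1), over 15918 other genes. For the endopeptidases these were, for Ctsd, Itgb5 (0.9984), Cmtm6 (0.9984), Cebpa (0.9979); for Ctsl, Plod3 (0.9975), Fcgr4 (0.9975), Fcrl1 (0.997); and, for Ctss, C1qa (0.999) and Siglech (0.9989) were among the nearest. Ctsb ran most like Man1c1 (0.9982), Ppt1 (0.9979), Slamf6 (0.9978). Ctsf ran most like Pdia3 (0.9982), Sun2 (0.9981), Rpn2 (0.998). For Lgmn the nearest were Gusb (0.999), H2-Ob (0.9989), Stk10 (0.9987). Among the exopeptidases, Ctsc ran most like Cd53 (0.9986), Tnfrsf1b (0.9984), Ifngr1 (0.9984). For Ctsh they were Irf5 (0.9991), Rnase4 (0.999), Tmem119 (0.9988). Ctsz came closest to Clic1 (0.999), Ifi30 (0.9987), Lrmp (0.9987). Among the nearest to Ctsa were Pla2g15 (0.9984) and Bank1 (0.9981). Within the family the coefficient ran from 0.9393 (Ctsf and Ctsh) to 0.9978 (Ctsd and Ctsz). These points share libraries, depth and the large step from Tissue-Input to the other groups, so all coefficients are high, and they are given as a description.

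Promoter windows of 8 of the 10 members were matched in the RefSeq promoter table of build GRCm38.p6 (250 bases before to 50 after a transcription start listed there). Ctsb and Ctsh had no entry. Letters were searched on both strands: CACGTG, the E-box at the core of the element bound by the TFEB family, TCACGTG, which reads as CACGTGA on the other strand and overlaps the first, and GAGGAAG, which reads as CTTCCTC on the other strand, a core of the kind bound by PU.1. Of 27025 genes with windows, 8.09% held CACGTG, 4.29% held TCACGTG and 15.4% held GAGGAAG. Among the members, CACGTG occurred in windows of Ctsa, Ctsd, Ctsf, Ctsl and Lgmn, and TCACGTG in Ctsa, Ctsd and Lgmn. GAGGAAG occurred in Ctsc and Ctss. Ctsa and Lgmn had 2 windows each, and their matches lay in 1 of them, while the window that held the annotated start of the gene had none. The Ctsl window with its match lay upstream of the annotated start of that gene and did not hold it. A match describes letters in the window and is no sign of binding. The 4 windows below, 5′ to 3′ on the strand of the gene with matches in capitals, show Ctss and Ctsc with GAGGAAG or CTTCCTC and Ctsd and Ctsa with the E-box letters. They lie at chr3:95526536-95526835 (plus strand, Ctss), chr7:88277835-88278134 (plus strand, Ctsc), chr7:142387778-142388077 (minus strand, Ctsd) and chr2:164833523-164833822 (plus strand, Ctsa, the second of its 2 windows).
Ctss: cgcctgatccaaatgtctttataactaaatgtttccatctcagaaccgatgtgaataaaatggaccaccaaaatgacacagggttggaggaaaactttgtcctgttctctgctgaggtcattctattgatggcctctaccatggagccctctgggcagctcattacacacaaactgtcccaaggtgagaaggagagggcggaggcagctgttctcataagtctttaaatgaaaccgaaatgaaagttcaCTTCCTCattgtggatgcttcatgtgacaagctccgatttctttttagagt
Ctsc: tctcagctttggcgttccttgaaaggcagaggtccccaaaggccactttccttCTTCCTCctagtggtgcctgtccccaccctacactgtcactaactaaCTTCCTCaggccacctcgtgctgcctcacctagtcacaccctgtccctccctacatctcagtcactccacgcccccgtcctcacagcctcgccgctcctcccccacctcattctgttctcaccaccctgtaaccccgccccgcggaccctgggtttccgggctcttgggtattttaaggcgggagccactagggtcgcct
Ctsd: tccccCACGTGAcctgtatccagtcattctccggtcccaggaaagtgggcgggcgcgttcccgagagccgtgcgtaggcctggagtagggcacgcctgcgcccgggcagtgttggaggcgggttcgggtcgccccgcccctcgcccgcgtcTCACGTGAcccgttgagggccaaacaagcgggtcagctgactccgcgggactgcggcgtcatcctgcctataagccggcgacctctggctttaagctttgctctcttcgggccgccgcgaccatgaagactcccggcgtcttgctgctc
Ctsa: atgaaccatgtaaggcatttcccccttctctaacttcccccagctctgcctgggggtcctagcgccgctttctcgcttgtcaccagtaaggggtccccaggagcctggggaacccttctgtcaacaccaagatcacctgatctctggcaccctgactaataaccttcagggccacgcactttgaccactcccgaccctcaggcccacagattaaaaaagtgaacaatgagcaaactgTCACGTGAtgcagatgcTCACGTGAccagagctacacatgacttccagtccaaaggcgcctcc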

How the data were processed

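Input and TRAP RNA of 22 mice was sequenced in 80 libraries, 48 of 14 mice in the sort table and 32 of 12 mice in the preparation table. The authors made stranded poly(A) libraries, aligned the reads to mm10 in Strand NGS, removed duplicates and deposited expected counts, most of which were not whole numbers. The authors also deposited log2 values, DESeq2-normalized and set against the median of Tissue-Input, which only the limma alternative below used. In each deposited set 23 gene symbols that had been turned into dates were restored.

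Expected counts were rounded and fitted in R 4.3.3 with edgeR 4.0.16 by the quasi-likelihood test with TMM normalization, separately for Input, TRAP and all libraries of each table, on genes with more than 5 counts in every library of at least 1 group (14723 to 15894 genes). Calls needed both a fold above 2 and an adjusted p (Benjamini-Hochberg) below 0.1, the thresholds of the authors. Each background is the share of all genes that were called. Shares of all genes under a p threshold alone, or without overlap between groups, are not given. Alternatives were DESeq2 1.42.0, limma 3.58.1 on the log2 values, DESeq2 size factors, no filter, a filter of at least 10 counts in every library, fits of only the groups compared, a block for the mouse, and leaving out each mouse in turn, with limma with a random block for the mouse and the block in fits of only the groups compared added after seeing the data. The steps were tested on simulated data.

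Mouse numbers in the library names link the Input and TRAP libraries of a preparation and preparations of the same mouse. Deviations from the group means correlated at a median of 0.32 between Input and TRAP of a preparation in the sort table and 0.227 in the preparation table, and at 0.076 and 0.122 between preparations of the same mouse. Depth ran from 2471448 counts upward, and Ctsc and Ctsh in Tissue-Input were the members with the fewest counts. Level per kilobase uses exon lengths of GENCODE M21. The members, the lists of lysosomal genes, cystatins, cell type markers and early response genes, and the tests were chosen with earlier results of these data known. Named genes are the members, every measured cystatin, the 3 genes most like each member, and at most 4 called genes with the largest absolute log2 fold from a lysosomal list. Single results of some of these genes are not reported here, while counts, medians and sums over the lists keep all listed genes. The series' other table, an earlier comparison of inhibitors, was not used.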

Additional observations from a re-analysis of the deposited data

Results flagged for a closer look

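A library was marked where it was the highest or lowest of its group and its gap to the nearest other library, as a share of the whole range, lay above the 95% critical value of Dixon; at that level chance marks about 1 group in 20, and 7 of 180 groups with 4 or more libraries were marked (3.89%), with shares of 0.844 to 0.978. In the sort table, Ctsb in autoMACS-Input stood at 1817.5 CPM for mouse 72, with the others at 3547.5 to 3838.3. Ctsh in autoMACS-TRAP stood at 686.9 CPM for mouse 73, with the others at 619.8 to 630.3. Ctss in Tissue-Input stood at 76.4 CPM for mouse 947, with the others between 54 and 56.6. In the preparation table, mouse 1362 was high for Ctsb in 3 groups. These were Cell (+) Input at 2292.1 CPM (others 1520.1 to 1620.1), Cell (+) TRAP at 6963.9 CPM (others 4811.4 to 5130.1) and Cell (-) TRAP at 7532.8 CPM (others 4856.6 to 4915.8). Ctsh in Tissue-TRAP stood at 185.9 CPM for mouse 948, with the others at 141.3 to 146.8.

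The tested difference between Cell and Tissue in log2 TRAP against Input was called for 3 members, at -1.37 for Ctsc, -1.74 for Ctsh and -1.97 for Ctss, each lower in Cell. Over all genes 29.5% were called lower in the same test. With the filter of at least 10 counts, 4 of 10 members were called lower, and over all genes 2035 of 9786 were called, 12.8% of these higher.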

How the results depend on the processing

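Over all alternatives, 3552 of 3570 member results kept their call, 10 lost it, 8 gained it, and no called fold turned its direction. With DESeq2, limma, DESeq2 size factors and the filter of at least 10 counts, the members called went from 10 to 9 for TRAP against Input in Cell and for the sorts against Cell in Input (Ctsf in each), and from 3 to 4 for the difference between Cell and Tissue (Ctsd, -0.86 to between -1.18 and -1.22); the cause was not tested. Leaving out each mouse in turn gave 3 to 4 for that difference, 5 to 6 for Dounce-Input against Tissue-Input (Ctsd) and 8 to 9 for Dounce-Input against Cell (-) Input (Lgmn), and the main count everywhere else. Signs changed 44 times over 17 folds near 0, none called, of which the largest was 0.26 (Ctsa in the difference). A replicate block for the mouse changed no call among 150 member results. Over all genes, the count for Cell (+) against Cell (-) TRAP went from 94 to 136 with the block, to 116 with only the groups compared, and to 150 with both together. That joint setting, and limma with the mouse as a random block for the sorts, where some mice gave 2 sorts, were chosen after seeing the data; the latter gave 9 members (without Ctsf) for the sorts against Cell in Input, as limma did, and 0 across the sorts. The filter of at least 10 counts, which tested 9786 to 12062 genes, moved the count over all genes by 1.53 to 9.35 times in 24 of 27 comparisons. For TRAP against Input it went from 1756 to 925 in sort Tissue, 7535 to 2734 in Cell, 2771 to 348 in autoMACS, 855 to 257 in autoMACS to Tyto, 2687 to 292 in Tyto, 1637 to 175 in FACSAria and 5579 to 2035 for the difference. In the preparation table it went from 1672 to 850 in Tissue, 7545 to 4432 in Dounce, 7519 to 3368 in Cell (-) and 7240 to 3172 in Cell (+). Cell against Tissue went from 7248 to 3247 in Input and 8126 to 4381 in TRAP, the sorts against Cell from 8162 to 3079 and 3651 to 440, and across the sorts from 1169 to 304 and 624 to 173. Against Tissue, Cell (-) went from 7043 to 4565 in Input and 7826 to 4770 in TRAP, Cell (+) from 7187 to 4617 and 7776 to 4624, and Dounce-TRAP from 7407 to 4675. Cell (+) against Cell (-) Input went from 49 to 32 and Dounce-TRAP against Cell (-) TRAP from 4228 to 1892. Fitting only the groups compared moved the counts for TRAP against Input from 2771 to 1003 in autoMACS, from 2687 to 1255 in Tyto and from 1637 to 680 in FACSAria, and across the sorts from 1169 to 484 in Input and from 624 to 394 in TRAP. DESeq2 moved the latter pair to 1917 and 1148. Higher genes as a share of calls, for TRAP against Input in Cell, went from 35.2% to 21.4% with DESeq2, 21% with its size factors and 18.8% with limma. For the difference the same settings moved it from 16.3% to 5.52%, 5.23% and 5.4%, and for Cell-TRAP against Tissue-TRAP from 46.2% to 35.4%, 35% and 31.8%. With limma it also went from 83.1% to 70.3% for TRAP against Input in sort Tissue, 43.8% to 30.4% in Dounce, and 72.1% to 58.6% for Dounce-TRAP against Cell (-) TRAP, which the stricter filter moved to 83%. For TRAP against Input in Cell (-) it went from 22.4% to 37.2% with that filter and 37.9% with only the groups compared, and in Cell (+) from 21.3% to 36.3% and 33.8%. With DESeq2 size factors the all-gene medians for TRAP against Input moved by 0.13 in Cell (-) and 0.12 in Cell (+), and they moved by 0.43 and 0.42 with the filter of at least 10 counts and by 0.44 and 0.39 with only the groups compared. CPM levels with these factors were 0.901 to 1.28 times the printed ones, and 101 of 200 group means moved by more than 1 standard deviation. Groups had 3 to 5 mice, Input and TRAP came from the same preparations, and several comparisons share libraries. Rounding affected values that were mostly not whole. Dounce-TRAP libraries, at 2471448 to 4724538 counts, limit the comparisons they enter, and Ctsc and Ctsh rest on few counts in Tissue-Input.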
